A study of Mus musculus with 2 samples.

Results

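The 12 embryos described here are the 1C and 8CB pseudoblastocysts that were sequenced together in 1 library pool, out of 24 embryos in the listed samples, and the question is how embryos of the same kind differed from one another. 1C embryos (n = 6) were fertilized oocytes whose zona pellucida, the glycoprotein coat of the egg, was taken off at 5 h post insemination (hpi). 8CB embryos (n = 6) grew from single blastomeres taken at 48 hpi from embryos of 8 cells, also without a zona. Each embryo was cultured to 96 hpi and sequenced on its own by CEL-Seq2, a method that tags each captured RNA molecule with a unique molecular identifier (UMI). All came from in vitro fertilization of oocytes of B6D2F1 females, a hybrid of inbred strains, aged 8 to 9 weeks, with sperm of ICR males aged 15 to 20 weeks. The sources do not say whether any of the 8CB embryos shared a parental embryo. Each embryo was a bulk sample in which fewer cells of a type and less RNA per cell cannot be told apart, and embryos were taken without a check for an ICM. The sample labels give the pool only, and the kind and number of each embryo come from the column names of the deposited table, by which the embryos were chosen. The 1C and 8CB kinds were not compared with each other gene by gene; the mean of each kind was taken out first.

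A blastocyst holds an outer trophectoderm, which forms the placenta, and an inner cell mass (ICM), which divides into epiblast, the source of the fetus, and primitive endoderm, the source of the yolk sac lining. Nanog is a transcription factor of the epiblast and Cdx2 one of the trophectoderm. Obox6 is a homeobox gene expressed in preimplantation embryos, and Sox21 encodes a SOX transcription factor linked to the first lineage choices of cleavage-stage blastomeres. In female embryos the noncoding RNA Xist coats and silences 1 X chromosome in each cell.

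The promoters of Nanog and Xist are shown because Nanog is a marker that varied in a graded way between embryos, and Xist was abundant in some embryos and nearly absent in others. Both are 300-base RefSeq windows in GRCm38.p6, running from 250 bases before to 50 bases after the start of the gene. The Nanog window is chr6:122707239-122707538 on the plus strand, and the Xist window is chrX:103483184-103483483 on the minus strand. Capitals mark matches on either strand of 4 short motifs. TGCAT, part of the octamer motif, occurs in 32.4% of 27025 mouse promoter windows of this length. The SOX motif, spelled CATTGT, occurs in 12.8% of these windows. A TATA box was searched for as TATAAA and is found in 14.2%. The GC box GGGCGG is found in 35.9%.
Nanog: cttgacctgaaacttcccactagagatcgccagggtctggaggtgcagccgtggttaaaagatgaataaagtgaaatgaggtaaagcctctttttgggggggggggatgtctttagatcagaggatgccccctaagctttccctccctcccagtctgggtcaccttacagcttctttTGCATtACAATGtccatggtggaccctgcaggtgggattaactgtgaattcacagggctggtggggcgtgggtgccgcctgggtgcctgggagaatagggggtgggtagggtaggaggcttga
Xist: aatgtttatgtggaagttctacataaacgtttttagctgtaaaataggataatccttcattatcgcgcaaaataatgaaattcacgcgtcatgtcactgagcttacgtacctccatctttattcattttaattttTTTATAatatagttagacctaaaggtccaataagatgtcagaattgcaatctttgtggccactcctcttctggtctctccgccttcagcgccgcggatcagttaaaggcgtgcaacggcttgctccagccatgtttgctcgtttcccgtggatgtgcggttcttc
The Nanog window held TGCAT followed after 1 base by CATTGT on the opposite strand, and the Xist window held 1 TATA box on the opposite strand. A match describes the letters in the window and no binding was measured.

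Totals ranged from 70941 to 368348 UMIs per embryo, with 6905 to 11499 genes detected. The shallowest embryos were 8CB embryo 6 (70941 UMIs), 8CB embryo 5 (117256), 1C embryo 4 (123594), 1C embryo 2 (124742) and 1C embryo 1 (145740), and the other 7 held 305311 to 368348 each. After every embryo was thinned to 70941 UMIs, 6880 to 7768 genes were detected. Markers of the blastocyst were uneven. Epiblast and ICM genes summed to between 6740 and 11100 CPM (UMIs per 1000000 of the embryo's scaled total) in each embryo, and trophectoderm genes to between 858 and 1730 CPM. Some defining markers were near 0: Pou5f1, which encodes the pluripotency factor OCT4, had 0 to 4 UMIs in each embryo and Krt8, a trophectoderm keratin, also 0 to 4. The 37 mitochondrial genes of the table, which every cell uses, had 0 UMIs in all 12 embryos, so a low count here says only what the table holds and not that a gene was silent. Genes of other cells that could have come along were low. Of 17 cumulus and granulosa genes, 7 had any UMI, and they summed to between 9.34 and 81.4 CPM. Sperm and blood genes each reached at most 5.77 CPM. The part of these genes in the results below was not tested.

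**Figure D1:**
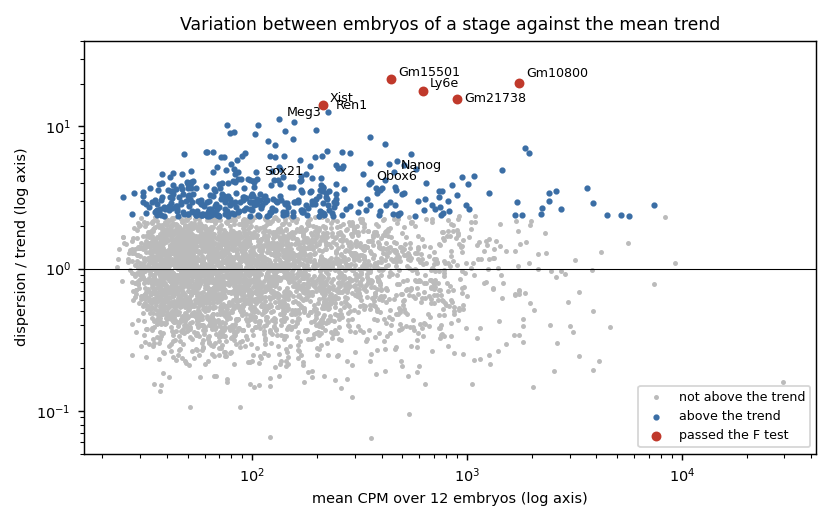
Dispersion of each of 4231 genes between embryos of the same kind, divided by the trend at its expression level (log vertical axis), against the mean CPM over 12 embryos (log horizontal axis). The 5 genes in red passed the F test, and the 404 genes in red or blue lay above the trend by the wider rule.

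Genes were ranked by the dispersion ratio, which is the variation of a gene between embryos of the same kind divided by the value that the trend over all genes gives at that expression level. A set of 5 genes passed the edgeR F test, which asks whether a ratio is large against the usual spread of dispersions between genes: Gm15501, Gm10800, Ly6e, Gm21738 and Xist. They were 5 of 4231 genes tested (0.118%, adjusted p below 0.1), and 242 genes had an unadjusted p below 0.05. By a wider rule, added after the values were seen, a gene was counted when its ratio exceeded the fitted trend by more than sampling of 12 embryos gives (chi-square, adjusted p below 0.1), and 404 of 4231 genes (9.55%) did so. After thinning to equal depth, with the same genes tested, this rule called 178 (4.21%), of which 168 were among the 404. The lists and modules below use the 404 genes called without thinning. The wider rule leaves out the usual spread of dispersions between genes, so that it calls more genes than the first. Among them are genes whose variation is within that usual spread. The adjusted p of the wider rule is against the trend alone and does not bound the share of such genes among the 404. The smallest ratio called by the wider rule was 2.33, equal at this rounding to the largest ratio not called. The typical coefficient of variation between embryos of a kind, beyond counting error, was 0.435. With a single set of counts for each embryo, differences between embryos and differences in their preparation cannot be told apart in it. When each kind was fitted alone the coefficient was 0.438 among 1C and 0.432 among 8CB embryos, and after thinning 0.419 and 0.437.

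Ly6e encodes a small lipid-anchored surface protein, and 2 embryos carried most of its RNA. 1C embryos ranged from 55.0 CPM through a median of 192.5 to 2793 CPM, and 8CB embryos from 112.4 through 281.6 to 2711 CPM (ratio 17.7, edgeR adjusted p = 0.0417). The high values belonged to 1C embryo 3, with 1066 UMIs, and 8CB embryo 5, with 314 UMIs, and the next highest embryo had 362.8 CPM. The edgeR adjusted p was 0.219 without 1C embryo 3, 0.191 without 8CB embryo 5 and 0.105 without 1C embryo 1.

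Gm15501, a predicted gene on chromosome 7, fell into 2 ranges. A group of 7 embryos (1C embryos 1, 2 and 4 and 8CB embryos 3 to 6) had 463.7 to 983.9 CPM, and the other 5 had 2.82 to 21.7 CPM. No embryo lay between these ranges, and each held embryos of both kinds (ratio 21.5, edgeR adjusted p = 0.0326). The split ran with depth: the 5 low embryos held 321255 to 368348 UMIs, and all 5 of the shallowest embryos (70941 to 145740 UMIs) were in the high range, with 8CB embryos 3 and 4. The part of depth in it was not tested.

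Gm10800 and Gm21738, predicted genes on chromosomes 2 and 14, were high in the same embryos. Gm10800 reached 9385 CPM in 1C embryo 1 and 7644 CPM in 1C embryo 2, against 33.8 to 1054 CPM in the other 10 (ratio 20.3, edgeR adjusted p = 0.0326). Gm21738 reached 4163 and 4327 CPM in these embryos, against 23.9 to 552.7 CPM elsewhere (ratio 15.6, edgeR adjusted p = 0.0569). The call of Gm21738 was lost without 1C embryo 1, 2, 5 or 6 or 8CB embryo 5 (edgeR adjusted p 0.102 to 0.151), and that of Gm10800 without 1C embryo 5 (0.123). Gm10801, which lies 2464 bases from Gm10800, followed it closely across embryos (r = 0.98, n = 12). Reads shared between near-identical copies could be split by the counting, so the values of these predicted genes are uncertain.

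**Figure D2:**
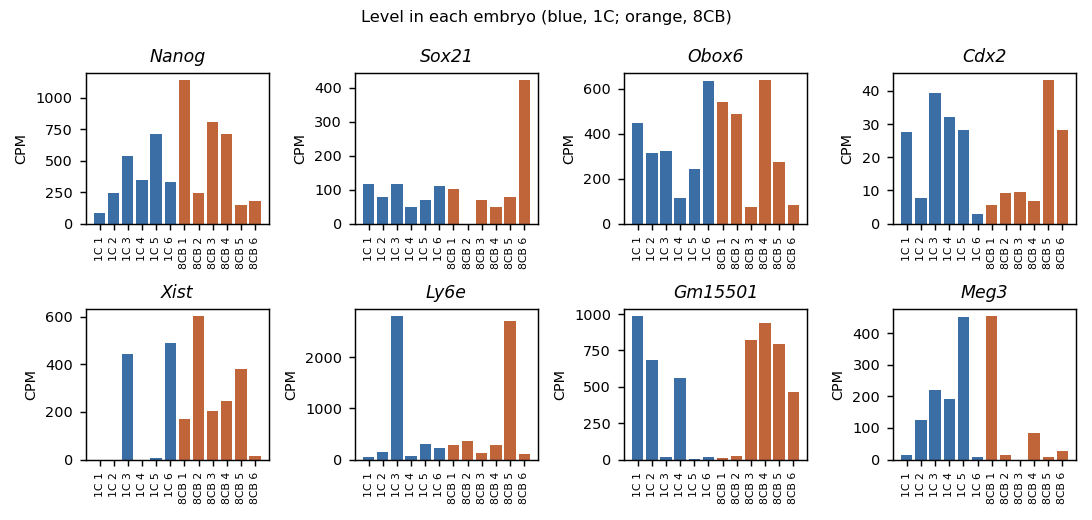
Level of 8 genes in CPM in each of the 12 embryos, with 1C embryos in blue and 8CB embryos in orange. Ly6e was high in 2 embryos, Gm15501 and Xist were near 0 in some embryos and high in the rest, and Nanog and Obox6 were graded.

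Of the 15 genes with the largest ratios and a mean of at least 50 CPM (ratios 8.89 to 21.5), the remaining 10 lay above the trend by the wider rule only. Several were at or near 0 in some embryos. Ren1, which encodes renin, was at 0 UMIs in 1C embryo 5 and 8CB embryos 5 and 6, at 1 UMI in 1C embryo 4, and between 227.3 and 754.0 CPM in the other 8. Meg3, a maternally expressed imprinted noncoding RNA, ranged from 8.90 CPM through a median of 159.0 to 450.8 CPM among 1C embryos and from 0 through 21.8 to 453.0 CPM among 8CB embryos. Cldn6, a tight junction protein, ranged from 23.7 through 138.5 to 563.5 CPM among 1C and from 0 through 49.5 to 330.7 CPM among 8CB embryos. Gm10801, Trp53i11, Olfr839-ps1, Cyp2f2, Cdk5r1, Agap2 and Pvt1 completed the group, each with 3 to 6 embryos at or under 3 UMIs.

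**Figure D3:**
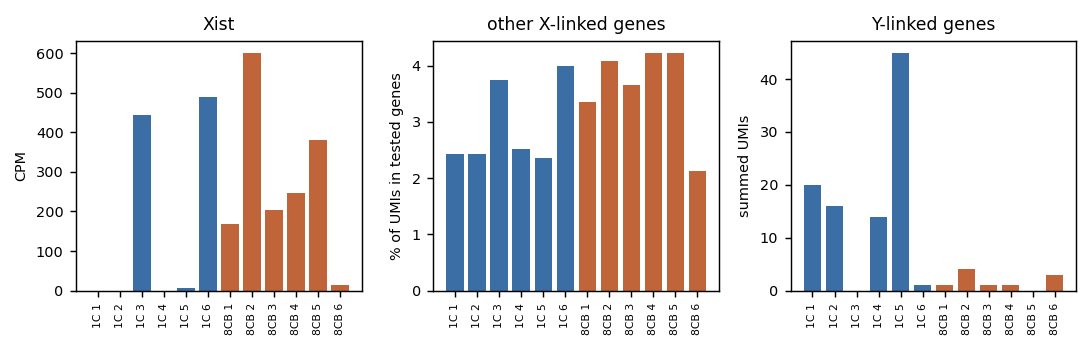
Xist in CPM, the share of UMIs in tested genes that fell on the other 119 X-linked genes in percent, and summed UMIs of Y-linked genes, in each embryo (1C in blue, 8CB in orange). The 5 embryos with 0 to 2 Xist UMIs are the 5 with the lowest X-linked share.

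Xist was present or nearly absent. It had 0 to 2 UMIs in 1C embryos 1, 2, 4 and 5 and in 8CB embryo 6, and 44 to 194 UMIs (169.5 to 601.6 CPM) in the other 7 (ratio 14.1, edgeR adjusted p = 0.0751). The call was lost without any 1 of the 1C embryos or 8CB embryo 5 (edgeR adjusted p 0.102 to 0.164). After thinning with the same genes tested, the ratio was 8.26 to 9.80 over 5 random draws and the call stood in all of them (edgeR adjusted p 0.0205 to 0.0353). With a new filter on the thinned counts, which left 1389 genes, the ratio was 9.11 (edgeR adjusted p = 0.183). Y-linked genes ran the other way. Ddx3y, a Y-linked RNA helicase, had 13, 6, 8 and 40 UMIs in 1C embryos 1, 2, 4 and 5, 2 UMIs in 8CB embryo 6 and 0 in every embryo with abundant Xist. Summed Y-linked UMIs were 14 to 45 in the 1C embryos without abundant Xist, 3 in 8CB embryo 6 and 0 to 4 in the 7 others. Because the embryos fell into separate sets, no correlation is given for this pair. Its permutation test within each kind gave p = 0.011 (0.175 after Benjamini-Hochberg adjustment over 26 relations). Only 1 of the 8CB embryos was in the set with little Xist, and few arrangements of such sets differ. A much lower p was hardly possible, so it is no measure of how sharp the split was.

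The other X-linked genes differed between the same sets of embryos. Their share of the UMIs in tested genes was 2.13% to 2.51% in the 5 embryos with little Xist and 3.36% to 4.23% in the other 7, without overlap. The median X-linked gene, relative to the median of all other genes in the same embryo, lay between −0.48 and −0.26 on the log2 scale in the first set and between 0.01 and 0.33 in the second. By the wider rule 23 of 119 X-linked genes lay above the trend (19.3%), against 9.55% of all genes tested. Uba1, which encodes the main ubiquitin-activating enzyme, had 810.1 to 1789 CPM in the 5 embryos and 2497 to 4195 CPM in the 7. Rpl39, a ribosomal protein gene, had 72.2 to 210.8 CPM against 333.5 to 590.0 CPM, and it was the only 1 of 68 cytosolic ribosomal protein genes tested that lay above the trend. Hprt, an enzyme of purine salvage, had 1636 to 3819 CPM against 4232 to 7605 CPM. For these 3 genes the ranges did not overlap. The sets were read from the data, hence these values are a description with no test. Of these, 4 of 5 embryos were 1C, so that taking out the mean of each kind also took out part of this difference. Of these 5 embryos, 4 were also among the 5 shallowest. The exception was 1C embryo 5, with 342884 UMIs, whose X-linked share was 2.36%. 8CB embryo 5, which was shallow, had abundant Xist and a share of 4.23%. In the 12 embryos of the other pool (2CB and 4CB, grown from blastomeres isolated at the 2-cell and 4-cell stages), the 4 embryos with 43 to 331 summed Y-linked UMIs had X-linked shares of 2.5% to 2.79% and X-linked medians of −0.20 to −0.10. The other 8, with 0 to 4 Y-linked UMIs, had shares of 3.01% to 3.4% and medians of 0.01 to 0.09, so that the sets did not overlap there either. Xist was less sharply divided there, with 4 to 35 UMIs in the first set and 58 to 551 in the second.

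**Figure D4:**
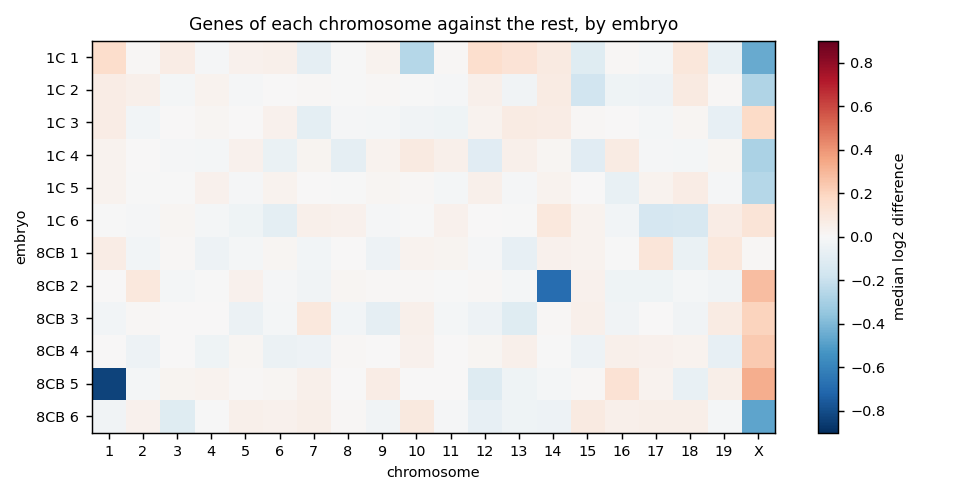
Median log2 difference of the genes of each chromosome from all other genes, by embryo; each gene is taken against its median over the 12 embryos. Chromosome 1 in 8CB embryo 5 (−0.83) and chromosome 14 in 8CB embryo 2 (−0.69) stand out among the autosomes, and the X chromosome separates the embryos with and without abundant Xist.

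The same view by chromosome, also added after the values were seen, set 3 embryos apart. In 8CB embryo 5 the median of 245 genes of chromosome 1 was −0.83 on the log2 scale relative to all other genes of that embryo (a ratio of 0.561), whereas the 11 other embryos lay between −0.03 and 0.16. In 8CB embryo 2 the median of 134 genes of chromosome 14 was −0.69 (0.622), against −0.05 to 0.10 elsewhere. In 1C embryo 1 the median of 218 genes of chromosome 10 was −0.25 (0.839), against −0.03 to 0.09. Among 228 pairs of an autosome and an embryo the next lowest value was −0.17 and the highest 0.16, and the SD without the lowest 3 was 0.0508. In the other pool the same measure ran from −0.27 to 0.12.

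The low values were spread along chromosomes 1 and 14, and less evenly along chromosome 10. In 8CB embryo 5, 83.7% of the chromosome 1 genes were below their median over the 12 embryos, compared with 39.6% to 55.1% in the other embryos. All 10 segments of 20 Mb on that chromosome had a median below 0, from −1.37 to −0.70, and below that of every other embryo. In 8CB embryo 2, 81.3% of the chromosome 14 genes were below their median, compared with 40.3% to 56.7%, and 6 of 7 segments had a median below 0 and below every other embryo. The exception was a segment with 3 genes (0.07). In 1C embryo 1, 67.0% of the chromosome 10 genes were below their median, compared with 43.6% to 52.3%, and all 7 segments had a median below 0, from −0.43 to −0.07. Only 4 of these 7 were below every other embryo. After thinning, the values were −0.72, −0.59 and −0.23. When only genes averaging 200 CPM or more were kept they were −0.82 (64 genes), −0.47 (24 genes) and −0.27 (53 genes). In that subset the other embryos ranged from −0.305 to 0.23 on chromosome 14, a wider range than with all 134 genes. The DNA content of the embryos was not measured in these data.

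Of 25 genes on chromosome 1 above the trend, 7 were lowest in 8CB embryo 5 (28.0%), beside 43 of all 404 genes above the trend (10.6%). Among the 7 was Cnot9, a subunit of the CCR4-NOT deadenylase, with 1 UMI there (8.64 CPM) and 99.2 to 1044 CPM in the other embryos. Of 15 genes on chromosome 14 above the trend, 5 were lowest in 8CB embryo 2 (33.3%), beside 18 of the 404 (4.46%), and Sox21 was 1 of them. Of 24 on chromosome 10, 7 were lowest in 1C embryo 1 (29.2%), beside 70 of the 404 (17.3%). The share of chromosome 1 genes above the trend was 10.2% and that of chromosome 14 genes 11.2%, beside 9.55% of all genes.

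Among the 4 marker genes, Nanog varied in a graded way. It ranged from 82.6 CPM through a median of 340.0 to 710.0 CPM in 1C embryos and from 146.8 through 475.8 to 1139 CPM in 8CB embryos. The ranges of the kinds overlapped, with the lowest values in 1C embryo 1 and 8CB embryos 5 and 6. These embryos were shallow (145740, 117256 and 70941 UMIs). Over all embryos Nanog had r = 0.74 with log2 total UMIs after thinning, and the part of depth in its variation was not tested. The ratio of Nanog was 4.75, which lay above the trend (adjusted p = 5.09e-05 by the wider rule in edgeR) but did not pass the F test (adjusted p = 0.614). In the other pool its ratio was 4.12 and also lay above the trend.

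Sox21 had a ratio of 4.28, with an 8CB embryo far from the others at each end of its range. 8CB embryo 2 had 0 UMIs of 321255, where a count of 0 allows up to 9.34 CPM, and 8CB embryo 6 had 30 UMIs (421.6 CPM). The other 10 embryos lay between 47.8 and 117.0 CPM. Sox21 lies on chromosome 14 (118233232 to 118237030, minus strand, GRCm38), the chromosome whose genes were low in 8CB embryo 2. It was above the trend in the other pool too, with a ratio of 3.33.

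Obox6 ranged from 112.3 CPM through a median of 317.9 to 637.5 CPM in 1C embryos and from 72.3 through 383.2 to 638.0 CPM in 8CB embryos (ratio 3.95, edgeR F test adjusted p = 0.726, above the trend by the wider rule). The lowest values were in 8CB embryos 3 and 6 and 1C embryo 4. Obox6 has paralogs in the same gene cluster, among which counting could split reads. Cdx2 did not pass the filter on low counts and has no ratio. It had 1 to 15 UMIs in each embryo, with 2.97 to 39.3 CPM among 1C and 5.56 to 43.2 CPM among 8CB embryos. In 7 embryos it had 3 UMIs or fewer, and differences among these embryos were not detectable at this depth.

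Several lineage genes lay above the trend. Of 11 epiblast and ICM genes tested, 5 were above it (Nanog, Esrrb, Dppa4, Spic and Klf5), with a median ratio of 2.05 over the 11. Of 6 trophectoderm genes, 4 were above it (Slc2a3, Eomes, Hand1 and Gata3; median ratio 2.76), and of 7 primitive endoderm genes, 2 were (Lrp2 and Fgfr2; median 1.59). The median over all genes tested was 1.00 and the share above the trend 9.55%. The cleavage-stage and maternal list had 2 of 4 tested genes above the trend, which were Sox21 and Obox6 themselves. These lists were chosen with earlier results of these embryos known and cover only members that passed the filter on low counts: 11 of 23, 6 of 23, 7 of 22 and 4 of 31 listed genes.

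Named members show how the lineage genes differed. Gata3, a trophectoderm transcription factor, ranged from 32.6 CPM through a median of 188.1 to 360.9 CPM in 1C and from 204.7 through 254.1 to 370.7 CPM in 8CB embryos. Its lowest values were in 1C embryos 6 and 1. Klf5, a factor of both early lineages, was highest in 1C embryo 4 (4861 CPM) and 8CB embryo 6 (4904 CPM), against 1031 to 2185 CPM in the other 10. Esrrb, an epiblast nuclear receptor, was lowest in the latter embryo (70.3 CPM) and in 1C embryos 4 and 5 (120.3 and 121.1 CPM), against 297.7 to 722.5 CPM elsewhere. Lrp2, the endocytic receptor megalin, ranged from 34.4 to 354.0 CPM. None of these genes passed the F test.

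Among cell cycle genes the shares above the trend are read beside the 9.55% of all genes tested. Of 26 S phase genes 1 lay above it (Uhrf1, median ratio 0.964 over the list), and of 36 genes of G2 and M phase 5 did (Tpx2, Cenpa, Cdk1, Ckap2 and Kif20b; median 1.12). Cdk1, the mitotic kinase, had 14.1 CPM (1 UMI) in 8CB embryo 6 and 64.2 to 332.1 CPM in the others. Tpx2, a spindle assembly factor, was lowest in 8CB embryo 5 (233.2 CPM) and 8CB embryo 6 (463.7 CPM) and otherwise between 641.7 and 2131 CPM.

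Beside 9.55% of all genes tested, 4 of 15 heat shock and chaperone genes lay above the trend (Hspa5, Hsp90b1, Hspb1 and Hsp90ab1; median ratio 1.15), with 1 of 5 genes of the unfolded protein and amino acid stress list (Asns) and 2 of 8 p53 targets (Bcl2l11 and Cdkn1a). Hspa5, the main chaperone of the endoplasmic reticulum, ranged from 158.3 CPM through a median of 631.6 to 1917 CPM in 1C and from 505.9 through 740.8 to 1853 CPM in 8CB embryos. Its highest values were in 1C embryo 4 and 8CB embryo 3. The cavity and epithelium list had 4 of 14 above the trend (Cldn6, Dsp, Pkp2 and Cldn7), and the FGF and ERK list 1 of 4 (Fgfr2). No gene of sterol synthesis (8 tested), glycolysis (4) or the proteasome (33) did. The median ratio was 0.552 for 68 cytosolic ribosomal protein genes and 0.722 for 49 genes of the electron transport chain, 3 of which lay above the trend.

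**Figure D5:**
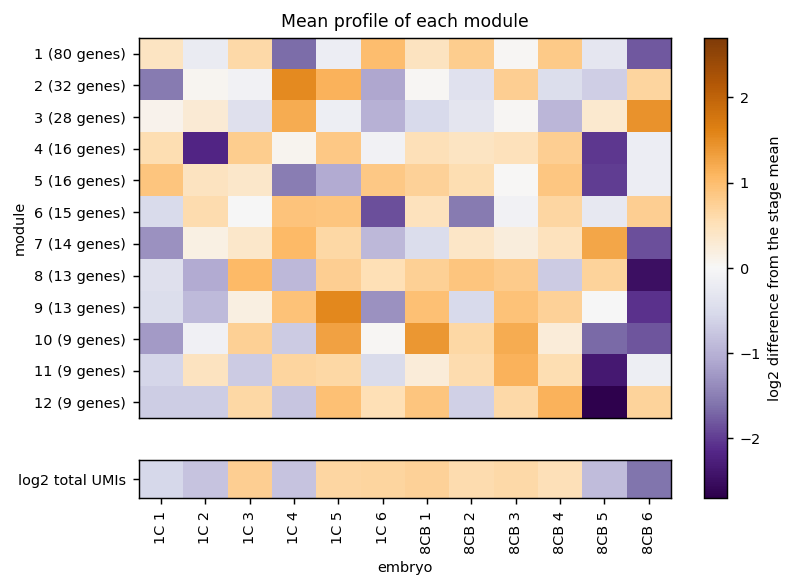
Mean profile of each of 12 modules of covarying genes, as the log2 difference from the mean of the kind in each embryo, with the log2 total UMIs of the embryos centred in the same way below. Modules 1 and 3 run in opposite directions in 1C embryo 4 and 8CB embryo 6, and modules 4, 5, 11 and 12 are lowest or nearly so in 8CB embryo 5.

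The 404 genes above the trend were grouped by their correlation across the 12 embryos after the mean of each kind was taken out, and 254 of them fell into 12 modules of at least 8 genes. Their correlation within a module was set by the grouping. The other pool gives a value that it did not use: over all 401 of these genes with a UMI there, the mean correlation of a pair was 0.016. It was highest within module 10 (0.345), module 3 (0.318) and module 1 (0.228), and lay between −0.04 and 0.205 within the other 9. The mean profiles of these 3 modules also followed sequencing depth in the present embryos (r with log2 total UMIs 0.89, −0.85 and 0.78, n = 12), as did module 8 (0.79), and the part of depth in them was not tested.

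Module 1 (80 genes) was lowest in 8CB embryo 6 (−1.80 on the log2 scale) and 1C embryo 4 (−1.65) and highest in 1C embryo 6 (0.99). It contained Xist and 12 other X-linked genes, Obox6, Esrrb, Dppa2 and Dppa4, Hand1 and the mitotic genes Cdk1, Tpx2 and Cenpa, and the genes nearest to its mean were Dppa4, Prps1, Dusp12, Hprt and Cdk1. Dppa4, a chromatin factor of pluripotent cells, had 154.6 CPM in 8CB embryo 6 and 208.5 CPM in 1C embryo 4, against 366.3 to 1385 CPM in the others. Module 3 (28 genes) ran the other way, with its highest values in 8CB embryo 6 (1.45) and 1C embryo 4 (1.19). Klf5, Ctsd and Vcp belonged to it, and Hsp90ab1, Zfp91, Rrp1b, Cbx3 and Tcof1 were nearest to its mean. Hsp90ab1, a cytosolic chaperone, had 16420 CPM in 1C embryo 4 and 14210 CPM in 8CB embryo 6, against 3520 to 8488 CPM elsewhere. After thinning to equal depth, the mean correlation within these modules was 0.52 and 0.63.

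Module 2 (32 genes) had little relation to depth (r = −0.11). It held the trophectoderm gene Gata3 and the epithelial genes Dsp and Cldn7 with the chaperones Hspa5, Calr, Hsp90b1 and Hspb1, and the genes nearest to its mean were Hexa, Zfhx3, Calr, Efnb2 and Gna11. It was highest in 1C embryos 4 (1.54) and 5 (1.14) and lowest in 1C embryos 1 (−1.52) and 6 (−1.11). The trophectoderm genes did not go together: of the 4 above the trend Gata3 alone was in module 2, Hand1 was in module 1, Slc2a3 in module 9 and Eomes in none. In 1C embryo 4, where module 2 was highest, the mean of the tested trophectoderm genes was the lowest of the 12 embryos (−0.71 from the mean of the kind). Calr, a chaperone of the endoplasmic reticulum, had 1885 CPM in 1C embryo 4 and 172.0 CPM in 1C embryo 1. In the other pool the mean correlation within this module was 0.08.

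In several smaller modules a few embryos were far below the rest. Modules 4, 5, 11 and 12 were at −2.04, −1.998, −2.35 and −2.68 in 8CB embryo 5, and module 4 was at −2.18 in 1C embryo 2. These embryos were shallow, with 117256 and 124742 UMIs. The mean profiles of modules 4, 5, 11 and 12 had r of 0.60, 0.41, 0.31 and 0.53 with log2 total UMIs, and module 9 had 0.50. The part of depth in them was not tested. Module 5 was also low in 1C embryos 4 (−1.50) and 5 (−1.06). On chromosome 1 lie 6 of the 16 genes of module 5, 4 of the 16 of module 4 and 1 of 9 in each of modules 11 and 12, beside 25 of all 404 genes above the trend. The genes nearest to the means were Camk2n2, Pofut2, Atp6v1h, Max and Tomm20 in module 4, Rps6ka5, Decr2, Pfdn2, Ren1 and Helq in module 5, Txnrd1, Snhg11, Cops8, H2-DMa and Trip6 in module 11, and Cnot9, Pla2g12a, Adprh, Rfx2 and Mcur1 in module 12. Nanog belonged to module 10 (9 genes, nearest Me1, Spindoc, Nanog, Shoc2 and Slc30a6), and Slc2a3, a glucose transporter, to module 9 (13 genes, nearest Plin2, Slc4a5, Efna3, Slc2a3 and Tead2). Module 6 (nearest Ktn1, Hmgn5, Lhfpl2, H2afy and Zyg11b), module 7 (nearest Rab12, Dffa, Mapre2, Tulp4 and Tprkb) and module 8 (nearest Atp6v1c1, Sdr39u1, Fam129b, Zfp979 and BC024063) were lowest in 1C embryo 6, 8CB embryo 6 and 8CB embryo 6.

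Correlations between variable genes were also read by their distance on the chromosome. Among 30 pairs of genes above the trend within 100 kb of each other the median correlation was 0.36, 8 pairs exceeded 0.5 (26.7%) and 9 were below 0. The 8 include Gm10800 with Gm10801, Olfr839-ps1 with Olfr837, and 2 pairs with the X-linked gene Gata1. For pairs at over 100 kb to 1 Mb the median was 0.05 (118 pairs, 19.5% above 0.5). For pairs farther apart on 1 chromosome it was 0.07 (4226 pairs, 15.2%), and for pairs on different chromosomes 0.03 (77032 pairs, 12.5%). Dppa4 and Dppa2, neighbours on chromosome 16 with 16185 bases between them, had r = 0.89, and Nanog and Slc2a3, with 13176 bases between them on chromosome 6, had r = 0.80. The other pool gave 0.20 and 0.28. The metallothionein genes Mt1 and Mt2 had r = 0.75 here and 0.68 there. Pairs share embryos and depth, therefore no test is given.

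The variable genes most like each marker were as follows, with r over 12 embryos as a description. Nanog was closest to Patl1 (0.85), Me1 (0.82) and Snap47 (0.81) and most opposed to Gm10800 (−0.74), Zfp951 (−0.73) and Shisal2b (−0.73). The same 6 values in the other pool were 0.15, 0.30, −0.09, −0.46, 0.21 and −0.28, with a change of sign for Snap47 and Zfp951. Obox6 was closest to Def8 (0.86), Anapc10 (0.84) and Cdk1 (0.83) and most opposed to Ctsd (−0.93), Vcp (−0.92) and Rrp1b (−0.91). In the other pool these 6 values were −0.47, 0.28, −0.18, −0.01, 0.30 and 0.51, although Obox6 did not pass the filter on low counts there. Sox21 was closest to Rhob, Nkx6-2 and H2-K1 (0.71, 0.69 and 0.64) and most opposed to Dhx40, Gigyf1 and Zcchc10 (−0.76, −0.74 and −0.74). For the other pool they were −0.82, −0.05, −0.02, −0.77, 0.28 and 0.54, of which the value with Dhx40 alone kept its sign. Within 1C embryos alone, where Sox21 varied little, its r with Rhob was −0.34 and with Dhx40 0.19. Cdx2, at its few UMIs, was closest to Zyg11b, Rrbp1 and Btaf1 (0.71, 0.71 and 0.71) and most opposed to Ptrhd1, Phf8 and Tpx2 (−0.80, −0.76 and −0.74). After thinning, the values with Zyg11b, Rrbp1 and Phf8 were 0.21, 0.43 and −0.46, and those with Btaf1, Ptrhd1 and Tpx2 were 0.73, −0.68 and −0.81. For Zyg11b, Rrbp1, Btaf1, Ptrhd1, Phf8 and Tpx2 the other pool gave 0.65, 0.26, 0.17, −0.51, 0.08 and −0.19.

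None of 26 relations between markers, list means and depth passed the permutation test after adjustment (100000 resamples within each kind, two-sided). The smallest adjusted p was 0.175, and 2 relations had an unadjusted p below 0.05. Nanog had r = 0.72 with log2 total UMIs (Spearman's rho = 0.66, permutation p = 0.0134, adjusted p = 0.175). After thinning r was 0.74 (permutation test, adjusted p = 0.143) and rho 0.81, which passed (permutation test, adjusted p = 0.0681). Without the 2 embryos farthest from the median of Nanog, r was 0.70, and it was 0.64 within 1C and 0.78 within 8CB embryos. Nanog with Cdx2 gave r = −0.37 (rho = −0.27, permutation p = 0.246, adjusted p = 0.399). It gave r = −0.85 within 8CB embryos (exact permutation p = 0.00833, adjusted p = 0.217) and 0.14 within 1C embryos (exact permutation p = 0.799). Within 8CB embryos Cdx2 itself had r = −0.89 with log2 total UMIs (exact permutation p = 0.0444, adjusted p = 0.343), the opposite sign to Nanog, and the part of depth in their relation was not tested. Epiblast with primitive endoderm means gave r = 0.37 (rho = 0.29, permutation p = 0.230, adjusted p = 0.399), and epiblast with trophectoderm means r = 0.25 (rho = 0.28, permutation p = 0.388, adjusted p = 0.531). Both were negative within 1C embryos (r = −0.26 and −0.39), positive within 8CB embryos (0.82 and 0.78), and negative without the 2 embryos farthest from the median of the epiblast mean (−0.12 and −0.20). The difference between the kinds was not tested. Trophectoderm with cell cycle means gave r = 0.47 (rho = 0.50, permutation p = 0.114, adjusted p = 0.377). It gave r = 0.89 within 1C embryos (exact permutation p = 0.00694, adjusted p = 0.181) and 0.19 within 8CB embryos (exact permutation p = 0.69). Without 8CB embryo 2 the r over both kinds was 0.72 (permutation test, adjusted p = 0.0538), and with all embryos after thinning it was 0.13. No other relation passed by r when an embryo was left out. The cell cycle mean had r = 0.62 with log2 total UMIs (rho = 0.66, permutation p = 0.0504, adjusted p = 0.366), and after thinning 0.32.

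The mean distance of embryos from their own kind did not differ detectably between 1C and 8CB. The distance of an embryo from the mean of the other 5 of its kind, as the root mean square log2 difference over 4231 genes after thinning, was 0.721 ± 0.0539 (SD, n = 6) for 1C and 0.729 ± 0.0848 (SD, n = 6) for 8CB embryos. The difference was −0.0076 (two-sided permutation test over all divisions of the 12 distances, p = 0.866). The distances were not computed anew for each division, and those of a kind share embryos, so this p is approximate. The farthest embryos were 8CB embryo 6 (0.884), 1C embryo 4 (0.815) and 8CB embryo 5 (0.770), and the nearest was 1C embryo 3 (0.661). Without thinning the distances were larger in the shallow embryos, at 1.21, 1.00 and 0.972 for the same 3. In a principal component analysis of the 404 genes, the first component (26.5% of the variance) separated 8CB embryo 6 and 1C embryo 4 from the others and had r = −0.765 with log2 total UMIs. The second (17.4%) also followed depth, with r = 0.61. The third (13.5%) set 8CB embryo 5 and 8CB embryo 6 at opposite ends and had r = −0.01 with log2 total UMIs.

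The 2CB and 4CB pool shares no embryo with this one. By the F test 6 of 5347 genes were called there (0.112%), which were Foxq1, Gm10800, Gm10801, Gm21738, H19 and Ly6e. Of the 5 genes called in the 1C and 8CB embryos, 4 were tested in both pools and 3 were called in both, namely Gm10800, Gm21738 and Ly6e. Xist had a ratio of 10.3 in the other pool (edgeR adjusted p = 0.164), and Gm15501 did not pass the filter there. By the wider rule 560 of 5347 genes (10.5%) lay above the trend in the other pool. Of the 404 genes above the trend here, 339 were tested in both pools and 130 (38.3%) were above it in both, which is 37.1% of the 350 called there. The share called there among all 3841 genes tested in both was 9.11%. The dispersion ratios of the pools had a Spearman correlation of 0.41 across these genes, which are not independent replicates. Of the 15 genes with the largest ratios here, 10 were tested there and 9 were above the trend, with Cldn6 (1.52) as the exception.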

How the data were processed

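The authors sequenced single embryos by CEL-Seq2, aligned reads with HISAT2 2.2.6 to GRCm38 and, per the labels and methods, counted with HTSeq 0.6.1 before DESeq2 1.10.1; the strand setting of the counting is not given in the sources used here. The deposited values are UMI counts per gene, not normalized, and 24 further columns of the table were not used. Genes were filtered by edgeR 4.0.16 (R 4.3.3, limma 3.58.1, DESeq2 1.42.0) and fitted with the mean of each kind, TMM scaling and a robust prior. Each quasi-dispersion was divided by the trend and tested in its upper tail (F test, or chi-square against the trend alone, which was added after the values were seen), with Benjamini-Hochberg adjusted p below 0.1. CPM is UMIs per 1000000 of the TMM-scaled total. Correlations used log2 CPM (prior count 2) minus the mean of the kind, in Python 3.11.15 with pandas 2.3.3, numpy 2.4.6, scipy 1.17.1 and matplotlib 3.10.9. Thinning drew 70941 UMIs from each embryo. On simulated data with dispersions that varied between genes, the F test missed many of the changed genes and called few unchanged ones, and the chi-square rule recovered most changed genes but called more unchanged than changed ones. Intervals and floors (3 UMIs) cover counting error only, and p-values measure the spread between these embryos, with that of their preparation included.

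The genes named were the 4 markers, the 15 with the largest ratios and a mean of at least 50 CPM, and Xist and Y-linked genes. Others were up to 5 from each list (4 by the rule set beforehand), 5 nearest to each module, and 3 nearest and 3 most opposed to each marker. The first 5 of the 15 passed the F test, and where the rule asked for called genes beyond these, the chi-square rule was used. Uba1, Hprt, Cnot9, Calr, Lrp2, Klf5, the neighbouring pairs and the chromosome view were chosen after their values were seen. The members and lists were chosen with earlier results of these data known. Replicate numbers did not pair the kinds: same-numbered 1C and 8CB embryos had r of −0.22 to −0.01. Alternatives were other scalings, filters, priors, thinning, each kind alone and each embryo left out.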

Additional observations from a re-analysis of the deposited data

Results flagged for a closer look

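In groups of 6 embryos of a kind, 4 values stood apart from the other 5 by Dixon's criterion, out of 64 groups examined, and chance gives about 1 in 20. On the log2 scale, chromosome 1 in 8CB embryo 5 had a median of −0.833 against −0.0346 to 0.0689 in the other 8CB embryos. Chromosome 14 in 8CB embryo 2 had −0.685 against −0.0464 to 0.0359. Chromosome 10 in 1C embryo 1 had −0.254 against −0.0285 to 0.0785 in the other 1C embryos. Chromosome 3 in 8CB embryo 6, the shallowest embryo, had −0.11 against −0.0181 to 0.0277, which lies within the range of other autosomes (−0.169 to 0.156).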

How the results depend on the processing

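The F test called 5 genes, 332 without a filter on low counts, 3 at an adjusted p below 0.05, 3 with a non-robust prior, 8 with 1 of the added thinning seeds, and 2 to 8 with an embryo left out. Among 1C embryos alone it called 6 genes, all 5 included, and among 8CB embryos alone 0 (198 genes at an unadjusted p below 0.05); the difference between the kinds was not tested. DESeq2 marked 49 genes as dispersion outliers, and the added rule against the trend called 404. With the replicate number as a replicate block the F test called 1 gene and the trend rule 208; the numbers do not pair the embryos. The trend rule called 130 genes after thinning with its own filter, 178 after thinning with the same genes (172, 165, 187 and 174 with other seeds), 229 in 1C alone, 198 in 8CB alone, and 350 to 423 with an embryo left out. In the other pool the F test called 5 to 15 genes with an embryo left out. Relations past the threshold were 0 to 1 with an embryo left out, the 1 without 8CB embryo 2. The difference in distance between the kinds ran from −0.0392 to 0.0227 with an embryo left out; it changed sign without 1C embryos 1 (0.0099), 2 (0.0158), 3 (0.0227), 5 (0.0102) or 6 (0.0019) or 8CB embryo 6 (0.0188). The cause of these changes was not tested. Depth limits genes at few UMIs: 3 UMIs were worth 8.14 CPM in the deepest and 42.3 CPM in the shallowest embryo.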
